A study of Mus musculus with 6 samples.

Results

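Cd53, Arhgap15, Itgb3, Ass1, Myo10 and Trio are 6 mouse genes at which H3K4me3, H3K36me3 or both had been seen higher in CD4 than in CD8 T cells. They were read in windows of mouse build mm9 that span 1365 bins of 1 kb out of 2641864 such bins on chromosomes 1 to 19, X and Y. The members were chosen by their H3K4me3 and H3K36me3 reads in these same libraries, so the differences between CD4 and CD8 cells below are a description of what chose them and carry no test. The groups are H3K4me3, H3K36me3 and input without antibody in mature CD4+ T cells, and the same 3 in mature CD8+ T cells, all from the thymus of C57BL/6 mice, with 1 library per group. Age, sex and any pooling of animals are not given in the labels, and chromatin was cut to mononucleosomes with micrococcal nuclease, an enzyme that digests the DNA between nucleosomes. With 1 library per group there is no replicate check, and every interval below is a 95% interval for counting error only, in reads that carry no molecular identifiers.

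H3K4me3 is a methylation mark of histone H3 that sits on the nucleosomes around active start sites of transcription. H3K36me3 is laid down behind elongating RNA polymerase and therefore covers the bodies of transcribed genes, usually more strongly towards their ends. A start site can carry H3K4me3 while little H3K36me3 lies over the gene, and the reads of the 2 marks were therefore counted separately.

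The 6 genes have different roles. Cd53 encodes a tetraspanin of the leukocyte surface, and Itgb3 the integrin β3 chain, which pairs with an α chain to bind extracellular matrix proteins. Arhgap15 and Trio act on the GTPase Rac in opposite directions: Arhgap15 is a GTPase-activating protein that switches it off, and Trio is a guanine nucleotide exchange factor that switches it on. Myo10 encodes an unconventional myosin that moves to the tips of filopodia. Ass1 encodes argininosuccinate synthase, the enzyme that joins citrulline and aspartate on the way to arginine.

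H3K4me3 was called higher in CD4 at 3 of 6 genes, Cd53, Arhgap15 and Itgb3, and H3K36me3 at 4 of 6, Itgb3, Ass1, Myo10 and Trio. The 2 marks were called in the same direction at 1 gene, Itgb3. H3K4me3 alone was called at 2 genes, Cd53 and Arhgap15, and H3K36me3 alone at 3, Ass1, Myo10 and Trio. H3K4me3 leaned the same way without a call at Ass1, 1.59-fold higher in CD4 (1.45 to 1.75), and at Myo10, 1.41-fold (1.28 to 1.55). These leans depended on the setting. With 1 read kept per position the log2 ratio at Ass1 was 0.12 (-0.11 to 0.35). Scaled to total reads that at Myo10 was 0.088 (-0.049 to 0.23). At 0 genes were the marks called in opposite directions, but at Cd53 H3K36me3 was 1.41-fold higher in CD8 (1.24 to 1.60) while H3K4me3 was 62.7-fold higher in CD4 (47.5 to 84.5). Reads from whole cell populations do not tell apart a larger share of cells with a mark and more of the mark per cell. Over the genome, in tiles of 100 kb, H3K4me3 was called higher in CD4 in 17.5% and higher in CD8 in 2.44% of the 8732 tiles with an enriched bin. H3K36me3 was called higher in CD4 in 0.379% and higher in CD8 in 0.152% of the 3959 tiles that stood at least 2 times over the input. Because the genes were picked for these differences, nothing is read from their counts against those shares.

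A call needed a fold of at least 2 between the cell types and an exact interval at 99.9% confidence that left out 1. For H3K4me3 the reads were summed over the 1 kb bins of a window that were enriched in either cell type, which means at least 20 reads and, in RPM (reads divided by library size), at least 4 times the input. For H3K36me3 all reads of the window were summed. Ratios are CD4 over CD8, relative to the median ratio of windows enriched in both cell types. Scaling to total reads instead would change every H3K4me3 log2 ratio by -0.40 and every H3K36me3 log2 ratio by -0.038.

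The median log2 ratio was 1.16 for H3K4me3 and 1.18 for H3K36me3 over the 6 genes. Over all tiles of 100 kb tested for each mark it was 0.057 and -0.0031. The genes were picked for high ratios, so nothing is read from this gap. The H3K4me3 median lies between Ass1 at 0.67 and Itgb3 at 1.64 and is the value of no gene. Closest to the 2-fold limit were H3K36me3 at Trio, 2.11-fold and called, and H3K4me3 at Ass1, 1.59-fold and not called. At smaller scales the same rule called 27.7% of 34592 H3K4me3 bins of 1 kb higher in CD4 and 6.18% higher in CD8 over the genome. It called 0.858% of 87026 H3K36me3 bins of 1 kb higher in CD4 and 0.833% higher in CD8, and 2.08% of 30253 H3K36me3 windows of 10 kb higher in CD4 and 0.84% higher in CD8.

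**Figure D1:**
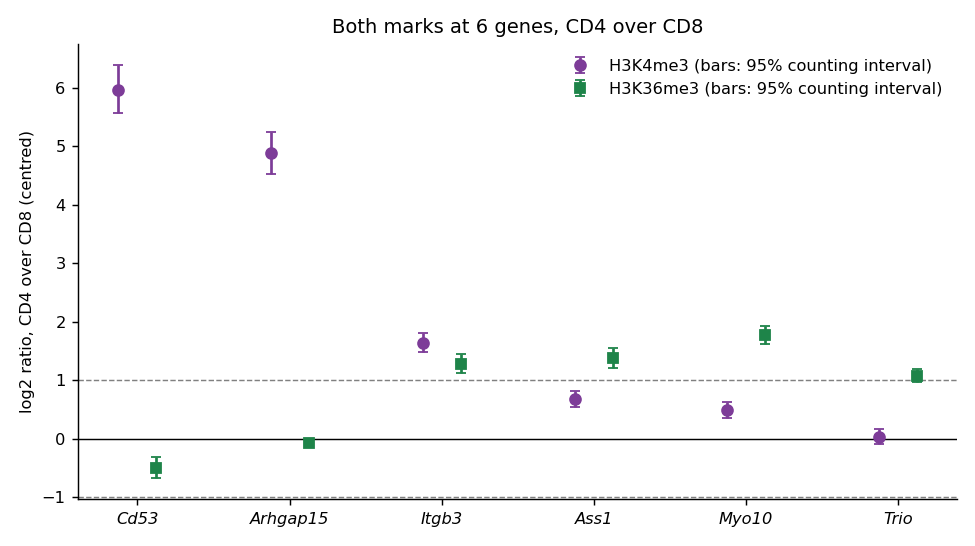
Log2 ratio of CD4 over CD8 reads at each gene for H3K4me3 (circles) and H3K36me3 (squares), with 95% counting intervals. The dashed lines mark a 2-fold difference. H3K4me3 lies at 5.97 for Cd53 and 4.88 for Arhgap15, where H3K36me3 lies at -0.50 and -0.073, and H3K36me3 lies above 1 at the other 4 genes.

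On the chromosomes used the H3K4me3 libraries held 10728764 reads in CD4 and 12114294 in CD8, the H3K36me3 libraries 6730337 and 6758121, and the inputs 10171739 and 9976535. The 2 H3K4me3 libraries differed in repetition and background: the number of distinct starts was 54.4% of the number of reads for CD4 and 31.4% for CD8, and away from marked regions CD4 stood at 19.2% and CD8 at 1.20% of the input level. H3K36me3 stood there at 31.7% of the input in CD4 and 32.5% in CD8. The labels were checked at 5 genes that define the lineages, in mm9 windows placed from general knowledge of the build. Cd4 had 2211 CD4 and 71 CD8 H3K4me3 reads and Cd8a had 101 CD4 and 3445 CD8 reads. Both marks were called towards the labelled lineage at the coreceptor genes Cd4, Cd8a and Cd8b1 and at Zbtb7b, the helper lineage factor. At Runx3, the cytotoxic lineage factor, H3K4me3 was called higher in CD8 and H3K36me3, with 360 CD4 and 408 CD8 reads, was not called. The CD4 over CD8 ratio of input RPM lay between 0.97 and 1.11 in the windows of the 6 genes and between 1.12 and 1.52 at the 5 lineage genes.

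The start regions of these genes differ in base composition, and the sequences are shown for the genes with a RefSeq promoter. Itgb3, also called for H3K4me3, is not among them, and base composition was not set against the H3K4me3 ratios over all promoters. RefSeq promoters (250 bases before to 50 after the start, build GRCm38.p6) were matched by symbol for 5 of 6 genes, with 7 promoters in all, and for Itgb3 none is printed. They are the first promoters of Cd53 (chr3:106790100-106790399, minus strand), Arhgap15 (chr2:43748574-43748873, plus strand), Ass1 (chr2:31470020-31470319, plus strand), Myo10 (chr15:25622300-25622599, plus strand) and Trio (chr15:28025799-28026098, minus strand). These coordinates belong to GRCm38.p6 and not to mm9, so they do not line up with the read positions below. Sequences run 5′ to 3′ with each CG dinucleotide, which reads the same on both strands, in capitals.
Cd53: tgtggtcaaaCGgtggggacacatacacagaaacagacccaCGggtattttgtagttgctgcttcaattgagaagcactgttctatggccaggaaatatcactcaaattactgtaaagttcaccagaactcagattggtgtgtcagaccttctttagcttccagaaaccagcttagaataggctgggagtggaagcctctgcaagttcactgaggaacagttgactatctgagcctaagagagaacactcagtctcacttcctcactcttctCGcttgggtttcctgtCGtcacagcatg
Arhgap15: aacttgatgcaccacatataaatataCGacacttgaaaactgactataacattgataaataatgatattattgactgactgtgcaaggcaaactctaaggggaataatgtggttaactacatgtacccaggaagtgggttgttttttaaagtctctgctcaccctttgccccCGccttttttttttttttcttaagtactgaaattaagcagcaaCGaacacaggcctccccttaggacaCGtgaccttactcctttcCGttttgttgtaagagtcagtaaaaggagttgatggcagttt
Ass1: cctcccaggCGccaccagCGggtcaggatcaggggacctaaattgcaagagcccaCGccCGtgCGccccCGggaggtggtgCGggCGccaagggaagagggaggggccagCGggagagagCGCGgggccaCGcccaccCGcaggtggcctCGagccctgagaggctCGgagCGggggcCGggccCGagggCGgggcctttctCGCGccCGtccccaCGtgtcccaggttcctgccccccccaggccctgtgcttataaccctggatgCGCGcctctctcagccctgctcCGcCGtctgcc
Myo10: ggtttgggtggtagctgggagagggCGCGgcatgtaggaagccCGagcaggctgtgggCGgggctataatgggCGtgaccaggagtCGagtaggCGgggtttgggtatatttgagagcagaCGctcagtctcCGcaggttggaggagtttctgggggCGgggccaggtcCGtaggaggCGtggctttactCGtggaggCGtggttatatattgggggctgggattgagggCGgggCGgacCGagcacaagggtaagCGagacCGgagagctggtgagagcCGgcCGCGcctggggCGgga
Trio: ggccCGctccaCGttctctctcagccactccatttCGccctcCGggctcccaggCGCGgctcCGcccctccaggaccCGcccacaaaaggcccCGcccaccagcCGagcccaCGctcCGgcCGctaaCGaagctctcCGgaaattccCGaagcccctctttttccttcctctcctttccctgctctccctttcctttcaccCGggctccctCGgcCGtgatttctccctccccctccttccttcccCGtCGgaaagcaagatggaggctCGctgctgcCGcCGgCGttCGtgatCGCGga

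The first promoters of the 2 genes with an H3K4me3 difference alone hold fewer CG dinucleotides than those of Ass1, Myo10 and Trio. Cd53 has 4 and Arhgap15 has 5, with a G+C content of 46.3% and 38.7%. Ass1 has 27, Myo10 has 23 and Trio has 28, with 74.0%, 64.7% and 66.7% G+C. Among all 32851 promoters of the table, 68.6% hold at least as many CG as Cd53 and 62.0% at least as many as Arhgap15. For Ass1, Myo10 and Trio the shares are 15.5%, 21.5% and 14.2%. The second promoter of Arhgap15 holds 8 CG at 43.7% G+C and that of Myo10 holds 6 at 48.0%. The median over the 32851 promoters is 7 CG. The part of base composition in the H3K4me3 difference was not tested. The H3K4me3 log2 ratios were 5.97 at Cd53, 4.88 at Arhgap15 and 1.64 at Itgb3. With input subtracted at the background level they were 5.98, 4.89 and 1.65, and with 1 read kept per position 4.77, 3.82 and 1.16. Beyond these settings the part of the unequal background and repetition of the 2 H3K4me3 libraries was not tested.

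Cd53, the tetraspanin gene, had the largest H3K4me3 ratio of the 6. Its mm9 window, chr3:106555001-106600000, held 2200 CD4 and 51 CD8 H3K4me3 reads, 419 CD4 and 609 CD8 H3K36me3 reads, and 154 CD4 and 155 CD8 input reads. Input was nearly equal, H3K4me3 lay almost wholly in CD4, and H3K36me3 had fewer reads in CD4 than in CD8.

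Almost all of the Cd53 H3K4me3 lay in 1 run of 6 kb, chr3:106588001-106594000, near the high-coordinate end of the window, which is the side of the start for a gene on the minus strand. The run held 2141 CD4 and 51 CD8 reads, at 72.5 times the CD4 input and 2.47 times the CD8 input. From low to high coordinate its 6 bins held 188, 103, 383, 494, 916 and 57 CD4 reads, against 5, 0, 12, 20, 7 and 7 CD8 reads. All 6 bins were enriched in CD4, and 1 bin was enriched in CD8, with 20 reads and 4.12 times the input, both barely at the threshold. The CD4 reads had 1109 distinct starts and the CD8 reads 43, and with 1 read kept per position the log2 ratio was 4.77 against 5.97 with all reads. The 50 kb below the window, on the side of Lrif1 in the RefSeq gene order, held 1317 CD4 and 1769 CD8 H3K4me3 reads, which gives a log2 ratio of 0.15, not called. The 50 kb above it held 53 CD4 and 3 CD8 reads (log2 ratio 4.72, 3.10 to 7.04) and was called higher in CD4 at 0.282 times the CD4 input and 0.0125 times the CD8 input. H3K4me3 was called higher in CD4 in 7 of the 12 flanks of 50 kb beside the 6 genes and higher in CD8 in 0. The flanks were not filtered for enrichment, and no share over the genome was taken for such stretches. Nothing is therefore read from this count. The part of the unequal library background, 19.2% of input in CD4 and 1.20% in CD8, in the flank values was not tested.

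H3K36me3 over Cd53 was strong in both cell types and leaned towards CD8. It reached 7.52 times the CD4 input and 11.5 times the CD8 input in the 10 kb at chr3:106565001-106575000, with 194 CD4 and 280 CD8 reads. All 4 tested windows of 10 kb had log2 ratios below 0, from -0.62 to -0.31, and 0 were called. In 1 kb bins 8 of 45 were enriched in CD4 and 14 in CD8, and the 1 called bin, chr3:106568001-106569000, had 14 CD4 and 40 CD8 reads. Over the whole window the log2 ratio was -0.50 (-0.68 to -0.31).

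Arhgap15, the Rac inhibitor, showed the same split between the marks over a much longer window. In chr2:43590001-44240000 there were 1977 CD4 and 105 CD8 H3K4me3 reads, 4474 CD4 and 4851 CD8 H3K36me3 reads, and 2967 CD4 and 2962 CD8 input reads. The enriched bins took 1341 of the CD4 and 68 of the CD8 H3K4me3 reads, which made the mark there 29.5-fold higher in CD4 (23.1 to 38.2). The flanks of 50 kb, not filtered for enrichment, had few reads. Their folds were 16.4 below the window, from 274 CD4 and 25 CD8 reads, and 31.4 above it, from 42 CD4 and 2 CD8 reads. Both were called. They stood at 1.01 and 0.153 times the CD4 input, against 0.0824 and 0.00603 times the CD8 input. Away from marks the H3K4me3 libraries stood at 19.2% of the input in CD4 and 1.20% in CD8. The part of this unequal background in the 2 flank folds was not tested.

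The leading H3K4me3 run of Arhgap15, chr2:43604001-43608000, was 4 kb wide and lay 14 kb inside the low-coordinate end, the side of the start on the plus strand. Its bins held 390, 373, 402 and 46 CD4 reads, against 1, 1, 16 and 2 CD8 reads, and all 4 bins were enriched in CD4 and 0 in CD8. In sum it had 1211 CD4 and 20 CD8 reads, at 95.7 times the CD4 input and 1.65 times the CD8 input, and was 90.4-fold higher in CD4 (58.3 to 148.6). The distinct starts numbered 662 in CD4 and 18 in CD8. A second, weaker run 11 kb further out, chr2:43593001-43595000, had 130 CD4 and 48 CD8 reads and a 4.05-fold difference (2.88 to 5.76). It was the only stretch of this window where CD8 had an enriched bin, with 42 reads at 11.5 times the input, against 101 CD4 reads. With 1 read kept per position the log2 ratio of the gene was 3.82 against 4.88.

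H3K36me3 covered Arhgap15 at about the same level in both cell types. The median over 65 windows of 10 kb was 2.15 times the CD4 input and 2.27 times the CD8 input. Of 44 tested windows 19 had log2 ratios above 0 and 25 below, from -0.68 to 0.69, and 0 were called. The whole window had a log2 ratio of -0.073 (-0.13 to -0.014), which is 1.05-fold higher in CD8. Beside the window the mark stood at 0.459 times the CD4 input and 0.390 times the CD8 input in the 50 kb below, and at 1.08 and 0.930 times in the 50 kb above, which is more than the 31.7% and 32.5% of input seen away from marks. RefSeq places 3 further genes over Arhgap15 in GRCm38, Arhgap15os, Gm39804 and Gm52508, and reads without strand cannot be told apart between them and Arhgap15.

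H3K36me3 was also read beside other runs with a large H3K4me3 difference. Over the genome 107 runs of enriched H3K4me3 bins had at least 200 CD4 reads and were at least 10-fold higher in CD4, the leading runs of both genes among them. This set was made after the pattern had been seen and includes these genes. Within 25 kb of 53 of these runs H3K36me3 was at least 2 times the input in 1 or both cell types, and at 41 it was so in both. H3K36me3 was called higher in CD4 at 1 of the 53 and higher in CD8 at 0, and the median log2 ratio was -0.12. The 1 call of 53 is 1.89%. Over the genome the rule called 2.08% of tested 10 kb windows and 0.379% of tested 100 kb tiles higher in CD4. Neither has the length of these stretches, and nothing is read from 1 call against those shares. Of the lineage genes, Cd4, Zbtb7b, Cd8a and Cd8b1 had both marks called the same way. Cd4 had 496 CD4 and 164 CD8 H3K36me3 reads beside its H3K4me3 difference, a log2 ratio of 1.64 (1.38 to 1.90). At Runx3 H3K4me3 alone was called, at a log2 ratio of -1.60, while H3K36me3 stood at -0.14.

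**Figure D2:**
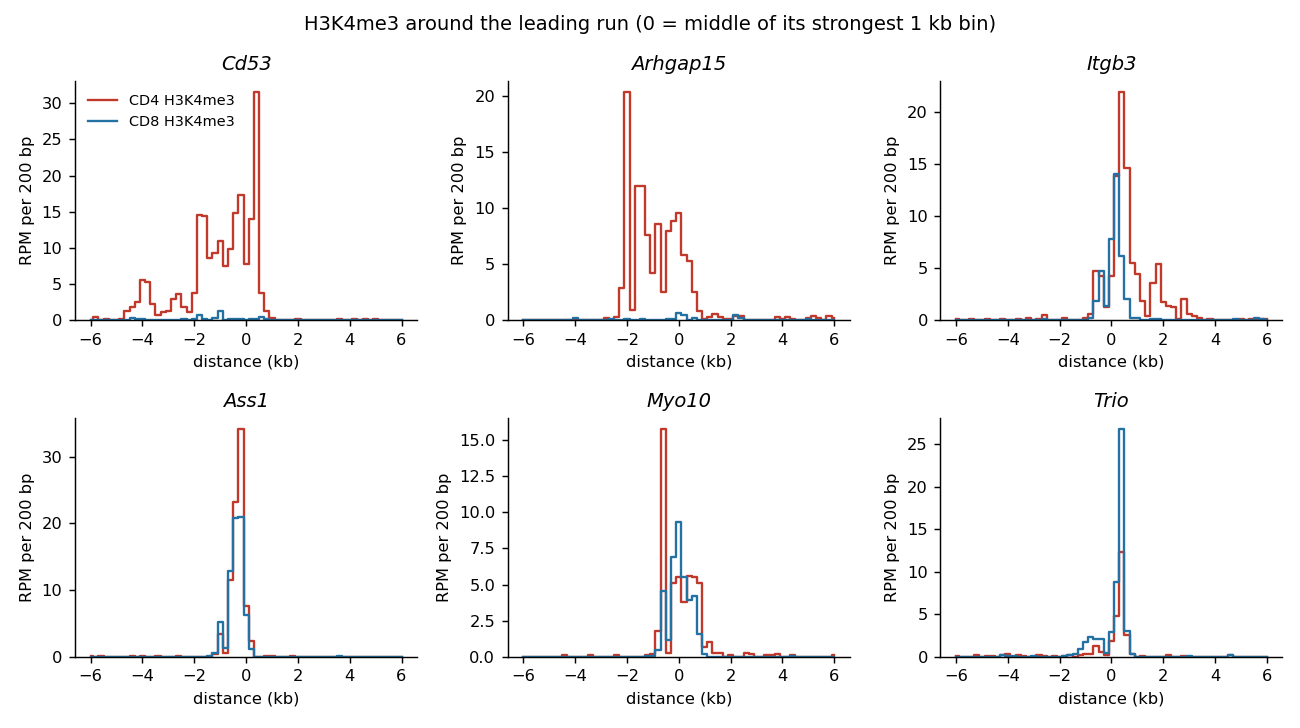
H3K4me3 in RPM per step of 200 bp around the strongest 1 kb bin of each gene's leading run, CD4 in red and CD8 in blue, plotted from low to high coordinate. CD8 stays near 0 at Cd53 and Arhgap15 and is narrower than CD4 at Itgb3. It covers the same positions as CD4 at Ass1 and stands above CD4 over most of the run at Trio. At Myo10 the highest CD8 value lies 600 bp towards higher coordinates from the highest CD4 value.

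Itgb3, the integrin chain, was the gene at which both marks were called higher in CD4. Its window chr11:104460001-104545000 held 1263 CD4 and 576 CD8 H3K4me3 reads, 1106 CD4 and 469 CD8 H3K36me3 reads, and 391 CD4 and 368 CD8 input reads. The fold was 3.12 for H3K4me3 in the enriched bins (2.81 to 3.48) and 2.43 for H3K36me3 over the whole window (2.18 to 2.71). The intervals do not overlap, but the 2 folds were taken over different parts of the window.

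The H3K4me3 difference at Itgb3 was one of width rather than presence. The leading run, chr11:104468001-104473000, held 1014 CD4 and 469 CD8 reads and was 3.23-fold higher in CD4 (2.89 to 3.61). Its bins held 59, 489, 288, 143 and 35 CD4 reads, against 25, 413, 29, 2 and 0 CD8 reads. The second bin, which is the peak in both cell types, was not called, and the other 4 were called higher in CD4. The peak bin stood at 154.5 times the CD4 input and 113 times the CD8 input, with each input counted at the floor of 3 reads. All 5 bins were enriched in CD4 and 2 in CD8. In steps of 200 bp the highest CD4 value, 235 reads, lay 200 bp further into the window than the highest CD8 value, 170 reads. A small run at chr11:104523001-104524000, 55 kb away, had 53 CD4 and 41 CD8 reads and was not called.

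H3K36me3 over Itgb3 began beyond the middle of the H3K4me3 run. Before it, up to the window's low-coordinate end, there were 27 CD4 and 27 CD8 reads, and from it to the small run there were 834 CD4 and 322 CD8 reads, with a log2 ratio of 1.42 (1.23 to 1.61). All 7 tested windows of 10 kb had log2 ratios above 0, from 0.92 to 1.88, and 6 were called. The largest was at chr11:104480001-104490000, with 143 CD4 and 40 CD8 reads, at 4.91 times the CD4 input and 0.984 times the CD8 input. The highest level in CD4 was 7.18 times the input and in CD8 2.86 times. In 1 kb bins 19 of 85 were enriched in CD4 and 1 in CD8, and 8 were called higher in CD4. Both 50 kb stretches beside the window had smaller log2 ratios, 0.59 below it and 0.38 above it, at no more than 1.28 times the input in CD4.

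Trio, the exchange factor, had higher H3K36me3 in CD4 and no called H3K4me3 difference over its enriched bins. In chr15:27650001-27960000 there were 1349 CD4 and 1300 CD8 H3K4me3 reads, 2112 CD4 and 1032 CD8 H3K36me3 reads, and 1471 CD4 and 1397 CD8 input reads. H3K36me3 was 2.11-fold higher in CD4 (1.96 to 2.27), the smallest of the 4 folds called. The H3K4me3 log2 ratio was 0.031 (-0.099 to 0.16) in the enriched bins and turned to -0.37 when scaled to total reads.

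Trio carried 6 separate H3K4me3 runs, and they differed among themselves. At the high-coordinate end, the side of the start on the minus strand, chr15:27954001-27957000 held 266 CD4 and 624 CD8 reads, which gives a log2 ratio of -0.65 (-0.86 to -0.44). Its bin chr15:27954001-27955000 had 23 CD4 and 89 CD8 reads and was the 1 H3K4me3 bin of the 6 genes called higher in CD8. This is the run with the most reads in CD8, while in CD4 a run inside the gene held slightly more. It lay 169 kb away at chr15:27785001-27787000, with 288 CD4 and 441 CD8 reads and a log2 ratio of -0.036. Both strong runs of Trio thus had fewer reads in CD4 than in CD8 by raw count.

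Of the other 4 runs 3 were called higher in CD4, all with few reads. They held 146 CD4 and 103 CD8 reads at chr15:27713001-27715000, 42 CD4 and 12 CD8 reads at chr15:27812001-27813000, and 56 CD4 and 12 CD8 reads at chr15:27853001-27856000. The run at chr15:27654001-27655000 had 24 CD4 and 12 CD8 reads and was not called. With all reads of the window the H3K4me3 log2 ratio was 0.63, not called, against 0.031 in the enriched bins. The unequal background of the 2 H3K4me3 libraries moves with the larger value, and its part was not tested.

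The H3K36me3 of Trio was strongest on the low-coordinate side of the inner run. Between the middles of the runs at chr15:27713001-27715000 and chr15:27785001-27787000 there were 997 CD4 and 427 CD8 reads, 4.51 times the CD4 input and 2.07 times the CD8 input, with a log2 ratio of 1.27 (1.10 to 1.43). From there to the low-coordinate run, over 59.5 kb, the log2 ratio was 1.40 (1.18 to 1.63) from 582 CD4 and 227 CD8 reads. On the other side of the inner run there were 100 CD4 and 54 CD8 reads over 26.5 kb, a 1.91-fold difference (1.36 to 2.71), and then 142 CD4 and 81 CD8 reads over 42 kb, a 1.81-fold difference (1.37 to 2.40). Those stretches stood at 1.13 and 0.941 times the CD4 input, against 0.628 and 0.613 times the CD8 input, and were not called. In the 101 kb next to the start there were 237 CD4 and 186 CD8 reads at 0.757 times the CD4 input and 0.597 times the CD8 input. The called difference thus lay in the low-coordinate part of Trio, far from the start, with smaller ratios towards the start. At the very low-coordinate end the difference was not seen, with 46 CD4 and 45 CD8 reads in the last 4.5 kb. Of 12 tested windows of 10 kb 10 were called higher in CD4, the largest at chr15:27670001-27680000 with 143 CD4 and 43 CD8 reads and a log2 ratio of 1.78. RefSeq places Gm29975 over Trio in GRCm38, and its reads cannot be told apart from those of Trio.

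Myo10, the filopodial myosin, had the largest H3K36me3 ratio of the 6. Its window chr15:25540001-25750000 held 1126 CD4 and 934 CD8 H3K4me3 reads, 1458 CD4 and 441 CD8 H3K36me3 reads, and 988 CD4 and 874 CD8 input reads. H3K36me3 was 3.41-fold higher in CD4 (3.06 to 3.80), and the log2 ratio was 2.38 with input subtracted at the background level, against 1.77 without. The window as a whole stood at 2.23 times the CD4 input and 0.745 times the CD8 input, and the 50 kb below it at 0.708 and 0.505 times. The 50 kb above it, on the side of Retreg1, stood at 1.89 and 1.39 times. There H3K4me3, with 1000 CD4 and 690 CD8 reads, was called higher in CD4, 2.16-fold (1.96 to 2.39), which at Myo10 itself it was not.

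H3K36me3 over Myo10 was stronger in the far part of the gene in CD4. In CD8 the windows of 10 kb stood between 0.305 and 1.40 times the input, with a median of 0.738. Away from marks CD8 H3K36me3 stood at 32.5% of the input. Between the middles of the leading H3K4me3 run and the run 152 kb away there were 927 CD4 and 290 CD8 reads, 2.01 times the CD4 input and 0.683 times the CD8 input. Over the next 38 kb there were 482 CD4 and 100 CD8 reads, 4.05 times the CD4 input and 0.940 times the CD8 input, a log2 ratio of 2.31 (2.00 to 2.64). All 10 tested windows of 10 kb were called higher in CD4, from 1.21 to 2.71. The largest, chr15:25730001-25740000, had 165 CD4 and 26 CD8 reads. In 1 kb bins 11 of 210 were enriched in CD4 and 0 in CD8. Beyond the middle of the run at chr15:25741001-25743000 there were 22 CD4 and 30 CD8 reads, in the last 8 kb of the window. RefSeq places Gm2862 over Myo10 in GRCm38, and its reads cannot be told apart from those of Myo10.

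H3K4me3 at Myo10 was present in both cell types at 3 runs. The leading run, chr15:25551001-25554000 near the low-coordinate end, held 544 CD4 and 461 CD8 reads, which gives a log2 ratio of 0.82, just short of 2-fold. Its outer bins, with 191 and 135 CD4 reads against 63 and 72 CD8 reads, were called higher in CD4, and its middle bin, with 218 CD4 and 326 CD8 reads, was not. The run at chr15:25703001-25705000 held 190 CD4 and 340 CD8 reads, which gives a log2 ratio of -0.26, and that at chr15:25741001-25743000 held 105 CD4 and 90 CD8 reads. None of the 3 runs was called. In steps of 200 bp around the leading run the highest CD4 value, 169 reads, lay 600 bp towards lower coordinates from the highest CD8 value, 113 reads. Over all enriched bins the log2 ratio was 0.49 (0.35 to 0.63), and 0.088 when scaled to total reads.

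Ass1, the arginine synthesis gene, gave the simplest picture, with 1 sharp H3K4me3 run and an even H3K36me3 body. In chr2:31320001-31385000 there were 963 CD4 and 856 CD8 H3K4me3 reads, 1006 CD4 and 398 CD8 H3K36me3 reads, and 225 CD4 and 220 CD8 input reads. H3K36me3 was 2.61-fold higher in CD4 (2.32 to 2.93), and H3K4me3 was 1.59-fold higher (1.45 to 1.75) and not called.

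The H3K4me3 run of Ass1, chr2:31325001-31327000, was 2 kb wide and enriched in full in both cell types. It stood at 282 times the CD4 input and 229.8 times the CD8 input. Each input held 1 read there and was counted as 3, so these values rest on the floor. Its bins held 171 and 722 CD4 reads, against 241 and 596 CD8 reads. The distinct starts were nearly equal, 309 in CD4 and 301 in CD8, and with 1 read kept per position the log2 ratio was 0.12 against 0.67. H3K36me3 over Ass1 was called higher in CD4 in all 5 tested windows of 10 kb, with log2 ratios from 1.06 to 1.73. The largest was at chr2:31340001-31350000, with 180 CD4 and 56 CD8 reads, at 10.1 times the CD4 input and 2.58 times the CD8 input. In the last 5 kb of the window the mark stood at 0.233 times the CD4 input and 0.114 times the CD8 input, from 2 CD4 reads and 1 CD8 read. In 1 kb bins 15 of 65 were enriched in CD4 and 4 in CD8.

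**Figure D3:**
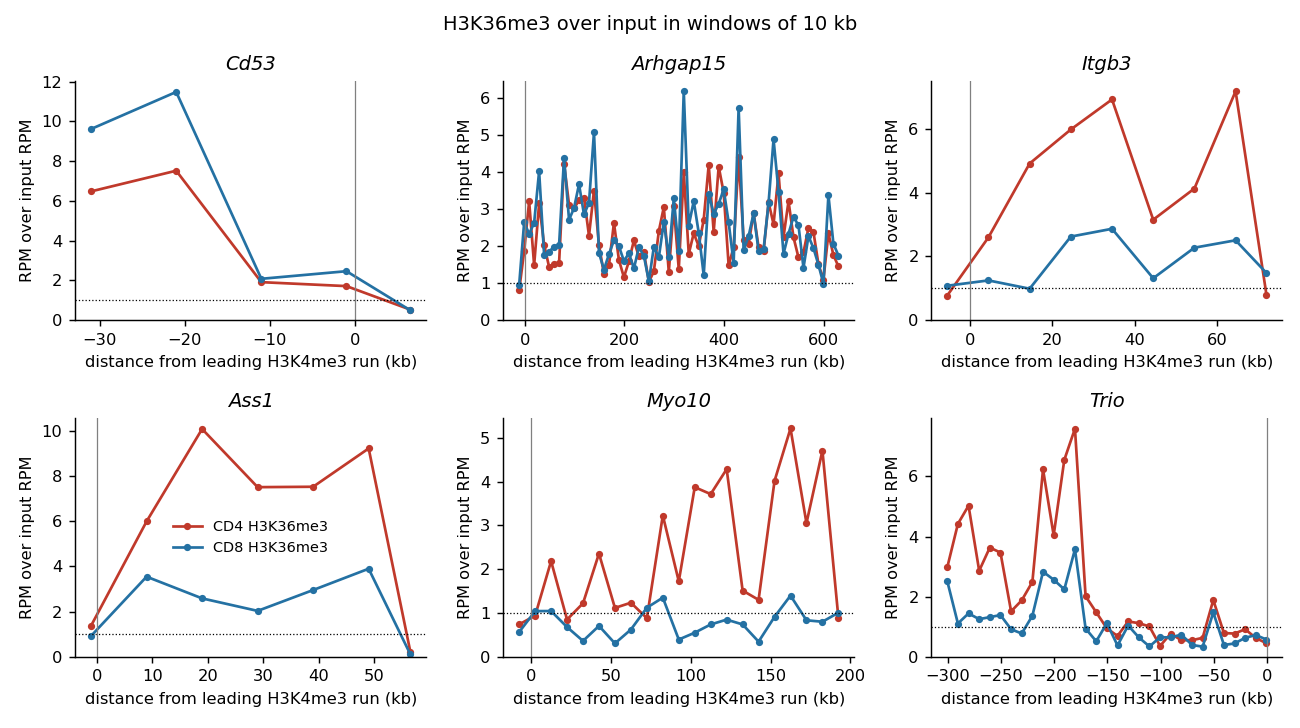
H3K36me3 in RPM over input RPM in consecutive windows of 10 kb along each gene, CD4 in red and CD8 in blue, set by distance from the leading H3K4me3 run (grey line). The dotted line marks the input level. The 2 curves run together at Arhgap15, CD8 is above CD4 at Cd53, and CD4 is above CD8 over most of the marked stretch of Itgb3, Ass1, Myo10 and Trio.

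Counted in 1 kb bins, H3K4me3 was enriched in 37 bins of the 6 genes in CD4 and in 20 in CD8, and 19 of these were enriched in both. Of the 38 bins enriched in either, 22 were called higher in CD4 and 1 higher in CD8. Over the genome 27.7% of 34592 such bins were called higher in CD4 and 6.18% higher in CD8. The 22 bins comprised all 12 bins of Cd53 and Arhgap15, 4 of 6 at Itgb3, 2 of 7 at Myo10, 4 of 11 at Trio and 0 of 2 at Ass1.

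H3K36me3 was enriched, at 2 times the input and 20 reads, in 102 bins of 1 kb in CD4 and in 50 in CD8, with 25 in both. Of 127 tested bins 23 were called higher in CD4 and 1 higher in CD8, beside 0.858% and 0.833% of such bins over the genome. They lay in Itgb3 (8), Ass1 (5), Myo10 (5) and Trio (5), and 0 lay in Cd53 or Arhgap15. In windows of 10 kb 31 of 82 tested were called higher in CD4 and 0 higher in CD8, against 2.08% and 0.84% over the genome. These bins and windows hold reads already counted in the gene values, and the genes were chosen by such reads. They show where in each gene the difference lay and are no second check.

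Of the 38 bins enriched for H3K4me3 and the 127 enriched for H3K36me3 in either cell type, 0 were enriched for both marks. Few of the 1365 bins passed for either mark, and the share enriched for both over the genome was not taken. Nothing is therefore read from the 0. At the leading H3K4me3 runs H3K36me3 had 36 CD4 and 50 CD8 reads at Cd53, 23 and 24 at Arhgap15, 28 and 15 at Itgb3, 1 and 1 at Ass1, 4 and 6 at Myo10, and 6 and 5 at Trio. At Itgb3, Ass1, Myo10 and Trio the leading runs are 2 to 5 kb of windows of 65 to 310 kb. Most H3K36me3 reads of these genes thus lay outside the leading runs. The widest gap at a leading run of these 4 was 28 CD4 against 15 CD8 reads at Itgb3.

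Over the 3350 genome tiles of 100 kb that could be tested for both marks, H3K4me3 alone was called higher in CD4 in 316 (9.43%), H3K36me3 alone in 12 (0.358%) and both in 1 (0.0299%). The marks were called in opposite directions in 1 tile, and neither mark was called in 88.9%. Set beside these tiles, the H3K36me3 log2 ratios of Itgb3, Ass1, Myo10 and Trio, 1.28, 1.38, 1.77 and 1.08, lay above 0.57, the value under which 95% of the 3959 H3K36me3 tiles fell. For H3K4me3 the corresponding value was 2.73, and Cd53 and Arhgap15 lay above it and Itgb3, at 1.64, below it. The windows of the genes are between 45 and 650 kb long, so a tile is not of the same length. The genes were chosen for high ratios in these libraries, so their place among the tiles follows from that choice.

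**Figure D4:**
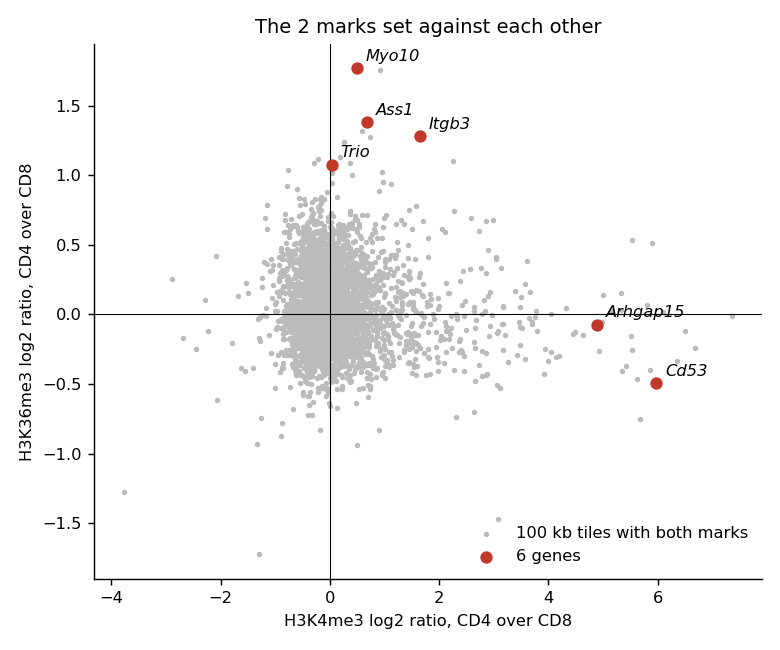
Log2 ratio of CD4 over CD8 for H3K4me3 (horizontal) and H3K36me3 (vertical) in 3350 tiles of 100 kb with both marks (grey) and at the 6 genes (red). Cd53 and Arhgap15 lie far to the right at the height of 0 or below, Ass1, Myo10 and Trio lie high near the middle, and Itgb3 lies to the upper right.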

How the data were processed

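The deposited files hold the chromosome, start and end of each placed read and no strand. The build is mm9 per the submitters' processing notes. How reads were aligned, and what was done with repeated or multiply matching reads, is not given in the sources used here. Every read was 33 bp wide. Each read on chromosomes 1 to 19, X or Y (98.3% to 99.8% of a library) was counted by its midpoint. The gene windows were given with the choice of members, and the members, windows and rules were chosen with earlier results of these data known. All 6 members are named, each with its leading run of H3K4me3 bins, every further run called, and the 10 kb H3K36me3 window with the largest ratio. The remaining runs were added after their values were seen. Coordinates are 1-based.

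Enrichment needed at least 20 reads per bin and 4 times (H3K4me3) or 2 times (H3K36me3) the input RPM of that cell type, where no input count was taken as lower than 3 reads. Runs joined enriched bins over gaps of 1 kb. Ratios were centred on the median over 2 kb (H3K4me3) or 10 kb (H3K36me3) windows enriched in both cell types, and intervals are exact Clopper-Pearson intervals conditional on the sum of reads. The level away from marks came from 894244 windows of 2 kb at least 10 kb from any window with over 9 reads of either mark. Alternatives were scaling to total reads, 1 read per position, input subtraction, pooled inputs, a 3-fold threshold, stricter enrichment, other regions of the window, 2 kb bins and at least 50 reads. Gene names, neighbours and promoters came from RefSeq (GRCm38.p6), whose coordinates were used for nothing else. Software was SciPy 1.17.1, pandas 2.3.3, matplotlib 3.10.9 and NumPy 2.4.6 under Python 3.11.15.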

Additional observations from a re-analysis of the deposited data

How the results depend on the processing

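Of 78 log2 ratios of the 6 genes recomputed under settings that could move them, 57 stayed inside the 95% interval of the reported value, 21 moved out of it, and 0 of the called ratios changed sign. The 2 changes of sign were both H3K4me3 at Trio, which was not called, at -0.37 with total reads and -0.65 with the leading run alone. H3K4me3 at Ass1 and Myo10, also not called, lay between 0.12 and 0.75 and between 0.088 and 0.85. The H3K4me3 ratio lay between 4.77 and 6.03 for Cd53, 3.82 and 6.50 for Arhgap15 and 1.16 and 1.71 for Itgb3, and the H3K36me3 ratio between 1.22 and 1.45 for Itgb3, 1.34 and 1.50 for Ass1, 1.73 and 2.38 for Myo10 and 1.03 and 1.36 for Trio. The 3 changes of call came with a 3-fold threshold, which left H3K36me3 called at 1 gene (Myo10, there alone), H3K4me3 alone at 3 genes, and both marks called the same way at 0 genes. H3K4me3 bins called higher in CD4 numbered 14 with 2 kb bins, and bins called higher in CD8 numbered 2 with total reads, 0 with the 3-fold threshold and 0 with 2 kb bins. A stricter fold cannot add calls, by its construction. With 2 kb bins there were fewer bins to test, 25 against 38 of 1 kb. What caused the remaining changes was not tested. No paired analysis was possible because each group has 1 library. Depth limits H3K36me3 in 1 kb bins, of which 127 of 1365 could be tested.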
